A study of Mus musculus with 4 samples.

Results

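The 10 genes described here report on 2 linked stress responses of the cell, the unfolded protein response of the endoplasmic reticulum and the ATF4 response: Atf4, Ddit3, Atf3, Trib3, Chac1, Asns, Xbp1, Hspa5, Dnajb9 and Herpud1. They were taken by name, with every probe on the array that carries the name of the gene, which gave 12 of 55681 probes and 10 of 36413 genes. Atf4 and Dnajb9 have 2 probes each and the other 8 genes have 1. They are a check of stress in transfected cells.

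The cells were C2C12, an established line of mouse myoblasts, muscle precursors that divide in rich medium and fuse into myotubes when it is withdrawn. They received, by lipid transfection, either an siRNA against a constitutive exon of Fxr1, which encodes an RNA-binding protein of the Fragile X family, or a random siRNA of matching GC content, and these conditions are called siFxr1 and siControl. Each condition was sampled once in each of 2 experiments, so that there were 4 samples, and RNA of each was hybridised to a one-colour Agilent mouse array. Both conditions carry a transfected siRNA, no untransfected cells were analysed here, and the siFxr1 and siControl arrays of one experiment shared a slide, so that experiment and slide cannot be told apart. The RNA integrity number was 8 in siFxr1 of experiment 1 and 9 in the other samples.

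Unfolded proteins in the endoplasmic reticulum are sensed by PERK, IRE1 and ATF6. PERK phosphorylates the translation factor eIF2alpha, as do the kinases that sense amino acid shortage, double-stranded RNA and haem deficiency, and ATF4 is then translated and switches on genes of amino acid supply and, if stress lasts, of growth arrest and cell death. IRE1 splices the Xbp1 mRNA, and spliced XBP1 and ATF6 raise chaperones and the machinery that removes misfolded proteins from the endoplasmic reticulum. In muscle cells, parts of this response are also used during differentiation.

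Levels are given as log2 of the normalized signal of a probe, in arbitrary units, and cannot be set against those of another probe. All 12 probes were well above background on all 4 arrays, and 0 spots of any array were saturated. Between 46.5% and 53.9% of the spots of an array were well above background, and the precision is limited by the number of arrays. The knockdown was seen at both Fxr1 probes, which were lower in siFxr1, with log2 fold changes of -3.31 (SE 0.29) and -3.61 (SE 0.28) and a log2 signal of at most 10.77 in siFxr1 and at least 13.20 in siControl. Of the myoblast markers, 5 of 6 were well above background on all 4 arrays and Myf5 on 0. Ptprc of the leukocyte list, Epcam and Cdh1 of the epithelial list and Adipoq and Plin1 of the adipocyte list were well above background on 0 arrays. On the leukocyte list Csf1r and Itgam, and on the adipocyte list Fabp4, were so on all 4. Of the endothelial list, Kdr and Cdh5 were well above background on all 4 arrays and Pecam1 on 3.

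The promoters show which of these genes carry the sequence elements by which the responses are known. In the 250 bases before the RefSeq start of each gene (build GRCm38.p6, all 10 genes matched), 5 elements were searched on both strands: the C/EBP-ATF response element that binds ATF4 (CARE, TGATGNAA), the cAMP response element (CRE, TGACGTCA), an ATF6 and XBP1 element (UPRE, TGACGTGG), the ER stress response element (ERSE, CCAAT and CCACG with 9 bases between them) and ERSE-II (ATTGG and CCACG with 1 base between them). CRE and UPRE begin with the same letters (TGACGT), and ERSE and ERSE-II both end in CCACG. A CARE was found in Atf3, Asns, Chac1 and Herpud1, that is in 4 of 10 genes, and in 3.91% of all 27025 genes. The matches are printed because they show which genes hold which element, and are given on the strand of the gene, with the element in capitals and the flanks in lower case. A match in the reverse direction reads TTNCATCA.

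Atf3 (CARE, chr1:191183416-191183463, minus strand): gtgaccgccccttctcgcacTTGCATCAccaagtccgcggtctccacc

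Chac1 (CARE, chr2:119351029-119351076, plus strand): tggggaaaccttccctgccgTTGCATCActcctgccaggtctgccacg

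Herpud1 (CARE, chr8:94386297-94386344, plus strand): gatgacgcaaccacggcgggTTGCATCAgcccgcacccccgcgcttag

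Asns (CARE, chr6:7693210-7693252, minus strand): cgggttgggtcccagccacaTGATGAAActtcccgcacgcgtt

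Hspa5 (ERSE, chr2:34772005-34772063, plus strand): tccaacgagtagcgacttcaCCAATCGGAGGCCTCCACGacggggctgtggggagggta

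Herpud1 (ERSE-II, chr8:94386357-94386407, plus strand): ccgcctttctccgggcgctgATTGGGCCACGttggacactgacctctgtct

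Atf3, Chac1 and Herpud1 carried the same 8 letters of CARE, in the reverse direction, and the match of Asns differed from them and lay the closest to its start, beginning 23 bases before it. Herpud1 held CARE and ERSE-II in 1 window, at separate positions. ERSE was found in Hspa5 among the 10 genes and in 0.130% of all genes, and ERSE-II in Herpud1 and in 0.0370%. CRE and UPRE were found in 0 of the 10 genes, against 1.77% and 0.603% of all genes. The absence of a match says only that these letters are not in this window.

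In the comparison of siFxr1 with siControl, which asks whether loss of Fxr1 came with more or less of the stress transcripts, none of the 10 genes was called. Fold changes of the 10, at the brighter probe where there are 2, lay between -0.23 (Herpud1) and 0.70 (Asns) on the log2 scale, with a median of 0.32 against 0.03 over all 19167 genes measured well above background. A probe was called at a B value above 0, where B is the log odds in limma that it changed. The limma adjusted p of the 10 lay between 0.975 and 0.998. The same fit called 0 of 55681 probes, that is 0%, by B and by an adjusted p under 0.05, Fxr1 included, and 2764 probes had an unadjusted p under 0.05. Joined with a term for the experiment and without dim probes, the fit called 354 of 25540 probes (1.39%) and none of the members. A fit that took as observations the 4 ratios between a siFxr1 and a siControl array called 1107 probes (1.99%), among them both Fxr1 probes with B values of 3.33 and 3.67, and again none of the members, whose B values there lay between -7.09 and -3.61. These 4 ratios come from 2 arrays of each condition and share them, so they are not 4 independent observations.

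Of the genes around ATF4, all 6 had estimates above 0, from 0.07 (Atf3) to 0.70 (Asns). The share of all genes above 0 was not counted, and their median was 0.03. In experiment 1 Atf3 and Chac1 were lower in siFxr1, by -0.65 and -0.08. All 6 had their lowest level in siControl of experiment 2 at the brighter or only probe. Herpud1, which also holds a CARE, is described below with the endoplasmic reticulum and had an estimate of -0.23. Asns, asparagine synthetase, an enzyme induced by ATF4 when amino acids are short (probe on chr6:7625171-7625228 of mm9), had a log2 signal of 15.44 and 14.78 in siFxr1 of experiments 1 and 2 and of 15.00 and 13.82 in siControl. It was higher in siFxr1 in both experiments, but its siFxr1 level in experiment 2 lay under the siControl level of experiment 1. The difference was 0.70 (SE 0.55, limma adjusted p = 0.975), with a 95% confidence interval from -0.97 to 2.37. With the experiment as a term the SE was 0.24, the interval ran from -0.06 to 1.46 and the limma adjusted p was 0.577.

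Ddit3, which encodes CHOP, the transcription factor that links lasting stress to cell death (probe between 126732518 and 126732821 of chromosome 10, mm9), had a log2 signal of 11.56 and 11.50 in siFxr1 and of 11.25 and 10.59 in siControl. It was the 1 gene of the 10 whose conditions did not overlap at its brighter or only probe and whose difference was above the SD of both conditions. The difference was 0.61 (SE 0.30, 95% confidence interval -0.30 to 1.51). Over all 19167 genes, 16.5% were higher in siFxr1 with no overlap, so that 1 of 10 was not above that share.

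Atf4 itself encodes the transcription factor at the centre of this response and is controlled mainly at translation. Its brighter probe (chr15:80087902-80087961, mm9) had a log2 signal of 17.34 and 17.03 in siFxr1 and of 17.23 and 16.70 in siControl, a difference of 0.22 (SE 0.28). The dimmer one (chr15:80086639-80086698, mm9) had 11.94 and 11.77 against 11.26 and 11.72, a difference of 0.36 (SE 0.24). At both probes siFxr1 was higher than siControl in each experiment, and at the dimmer one the conditions did not overlap, with a gap of 0.05. Protein and translation of ATF4 were not measured on these arrays.

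Trib3, a pseudokinase that ATF4 and CHOP induce and that binds the kinase AKT (probe on chr2:152163161-152163220 of mm9), had a log2 signal of 13.19 and 11.47 in siFxr1 and of 13.00 and 10.36 in siControl. Chac1, an enzyme that degrades glutathione (chr2:119179990-119180049, mm9), had 13.00 and 11.06 in siFxr1 against 13.08 and 10.16 in siControl. Atf3, a stress-induced transcription factor (chr1:192994547-192994606, mm9), had 9.37 and 8.36 in siFxr1 against 10.01 and 7.57 in siControl. In these 3 genes the levels fell into a high pair from experiment 1 and a low pair from experiment 2, and the conditions overlapped. The differences between conditions were 0.64 (SE 1.24), 0.41 (SE 1.38) and 0.07 (SE 1.05). With the experiment as a term, which takes the distance between these pairs out of the error, the SEs were 0.32, 0.34 and 0.45 and the limma adjusted p were 0.669, 0.732 and 0.968.

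On the side of the endoplasmic reticulum the differences were of either sign. Xbp1, whose spliced form encodes the transcription factor of the IRE1 branch (chr11:5425816-5425875, mm9), had a log2 signal of 15.12 and 14.36 in siFxr1 and of 14.64 and 13.84 in siControl. It was higher in siFxr1 by nearly the same amount in each experiment, 0.48 and 0.52, and the fitted difference was 0.50 (SE 0.46). With the experiment as a term the SE was 0.19 and the limma adjusted p was 0.598. The gene has 1 probe, and spliced and unspliced mRNA are not told apart by it.

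Hspa5, which encodes BiP, the main chaperone of the endoplasmic reticulum (chr2:34631913-34631972, mm9), had a log2 signal of 16.51 and 16.21 in siFxr1 and of 16.54 and 15.73 in siControl, a difference of 0.23 (SE 0.37). Herpud1, a membrane protein of the degradation machinery (chr8:96919117-96919176, mm9), had 12.99 and 12.37 in siFxr1 against 13.29 and 12.52 in siControl, a difference of -0.23 (SE 0.42). It was the only one of the 10 that was lower in siFxr1 in both experiments. The brighter probe of Dnajb9, which encodes the BiP cochaperone ERdj4 (chr12:45307313-45307372, mm9), had 11.20 and 9.91 against 11.66 and 9.88, a difference of -0.22 (SE 0.87). The other probe of Dnajb9 (chr12:45308272-45308331, mm9) had 7.81 and 7.52 against 7.88 and 6.95 and a difference of 0.25 (SE 0.41), so that the 2 probes of this gene disagreed in sign.

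Counted over the 10 genes, 5 were higher in siFxr1 in both experiments (Asns, Ddit3, Atf4, Trib3 and Xbp1), 1 was lower in both, and 4 went opposite ways in the 2 experiments (Atf3, Chac1, Hspa5 and Dnajb9). Of all genes measured, 34.1% were higher in both and 29.8% lower in both. A difference of at least 2-fold in both experiments was reached by 0 of the 10 in either direction, against 2.11% of all genes for higher and 1.5% for lower.

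**Figure D1:**
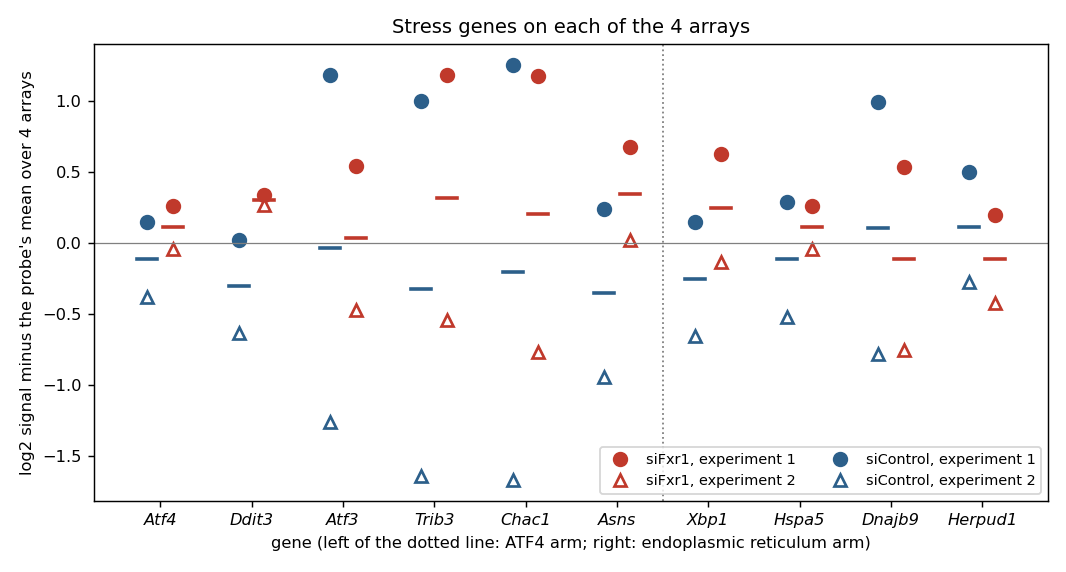
Log2 normalized signal of the 10 genes on each of the 4 arrays, minus the mean of the probe over the arrays, with circles for experiment 1, triangles for experiment 2, red for siFxr1, blue for siControl and a short line for the mean of a condition (n = 2; the brighter probe is shown where a gene has 2). For 9 of the 10 genes the circles of both conditions lie above the triangles of both, the farthest apart for Chac1 and Trib3, and only Ddit3, the other gene, has both red symbols above both blue ones. The share of all genes with circles above triangles was not counted.

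The larger differences of these genes were between the 2 experiments. All 10 were lower in experiment 2 than in experiment 1 in both conditions, where 41.4% of all genes were, and 4 of them were at least 2-fold lower in both, where 5.01% of all genes were. These 4 were Chac1, Trib3, Atf3 and Dnajb9. Only the dimmer Atf4 probe went another way, by -0.18 in siFxr1 and 0.46 in siControl.

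The level of Chac1 was 5.41-fold higher in experiment 1. Its log2 difference of experiment 2 from experiment 1 was -1.94 in siFxr1 and -2.92 in siControl, and the fitted difference was -2.43 (SE 0.34). Trib3 was 4.54-fold higher in experiment 1, with a fitted difference of -2.18 (SE 0.32). Atf3 was 3.31-fold higher, with -1.73 (SE 0.45), and Dnajb9 2.89-fold, with -1.53 (SE 0.24). The other 6 had fitted differences between -0.92 (Asns) and -0.36 (Ddit3), and the median over the 10 was -0.85 against -0.07 over all genes. In 9 of the 10 genes, all but Ddit3, both arrays of experiment 1 lay above both of experiment 2. The share of all genes with this separation was not counted, so the 9 cannot be set against it.

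In the fit with condition and experiment as terms, 7 of the 10 genes had an unadjusted p under 0.05, but none passed a limma adjusted p under 0.05, and neither did any of the 55681 probes (0%), of which 11172 had an unadjusted p under 0.05. The adjusted p was 0.118 for Chac1, 0.121 for Trib3, 0.125 for Dnajb9 and 0.196 for Atf3. This count depended on the processing. With dim probes left out, 4342 of 25540 probes (17%) passed, and Chac1 (limma adjusted p = 0.008), Trib3 (0.010), Dnajb9 (0.016) and Atf3 (0.031) passed with them, with the same fitted differences. Over all probes, 5 of the 10 passed with scaling to the 75th percentile, 6 with normexp background correction and 6 in the authors' normalized table. In the same order, 5846 (10.5%), 4471 (8.03%) and 5450 (9.79%) of the 55681 probes passed in these fits. With 75th percentile scaling all 10 genes had the same SE, 0.48, so that which of them passed depended only on the size of the difference. Where the arrays were scaled to their 75th percentile and not quantile-normalized, this moved the median of all genes from -0.07 to -0.19 and that of the 10 genes to -1.39, and all 10 were again lower in experiment 2 in both conditions.

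Markers of differentiating muscle moved with the experiments in the same direction. All 7 that were listed (Myog, Myh3, Tmem8c, Tnnt1, Tnnt3, Ckm and Acta1) were at least 2-fold lower in experiment 2 in both conditions, and the log2 of their summed signal went between the experiments from 18.37 to 16.32 for siFxr1 and from 18.50 to 16.45 for siControl. Within either experiment siFxr1 differed from siControl in this sum by -0.13, and Ptprc, Epcam, Cdh1, Adipoq and Plin1 stayed at background on all arrays. Other markers on the same lists went either way. Itgam went from 12.03 to 13.62 in siFxr1 and from 11.33 to 13.81 in siControl, and Fabp4 from 8.36 to 10.13 and from 7.93 to 8.46. Csf1r, on the list of Itgam, went from 11.12 to 10.46 in siFxr1 and from 10.21 to 9.68 in siControl. Cd68 was well above background on 2 arrays. The summed log2 signal of the myoblast markers ranged from 16.60 to 17.12 over the 4 arrays. The part of differentiation, or of the other cell markers, in the difference between experiments was not tested, and experiment, slide and any difference in the state of the cultures cannot be told apart.

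**Figure D2:**
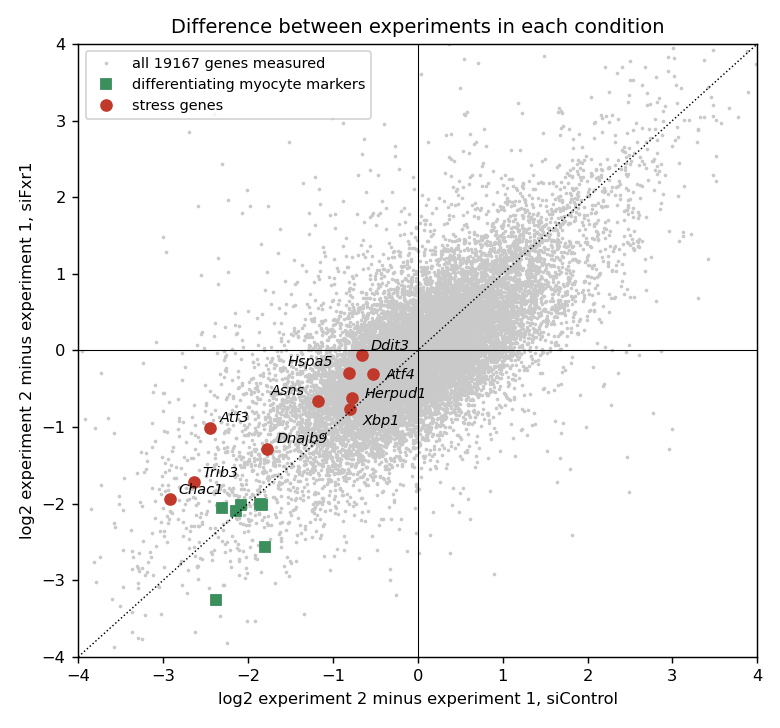
Log2 signal in experiment 2 minus experiment 1, in siControl (horizontal axis) and in siFxr1 (vertical axis), for all 19167 genes (grey, 39 lie outside the axes), the 10 stress genes (red) and the 7 markers of differentiating myocytes (green squares); the dotted line marks equal differences. Shown at the brighter probe where a gene has 2, all 10 stress genes lie to the lower left of 0 and above the dotted line. Chac1, at -2.92 and -1.94, lies the farthest out.

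At the brighter or only probe, the drop from experiment 1 to experiment 2 was larger in siControl than in siFxr1 for each of the 10 genes. This is the same as a larger difference of siFxr1 from siControl in experiment 2. The dimmer Atf4 probe went the other way, with a difference of 0.68 in experiment 1 and 0.05 in experiment 2. Over all genes, 49% had the larger difference in experiment 2. The median difference of the 10 genes was 0.04 in experiment 1 and 0.65 in experiment 2, against 0.05 and -0.0015 over all genes. Trib3 differed by 0.18 in experiment 1 and 1.10 in experiment 2, Asns by 0.44 and 0.96, Ddit3 by 0.31 and 0.91, and Chac1 by -0.08 and 0.90. In 9 of the 10, all but Herpud1, siControl of experiment 2 had the lowest level of the 4 arrays at the brighter or only probe. The dimmer Atf4 probe was lowest in siControl of experiment 1, at 11.26. Whether the difference between conditions itself differs between the experiments could not be tested, since each condition has 1 array in each experiment.

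**Figure D3:**
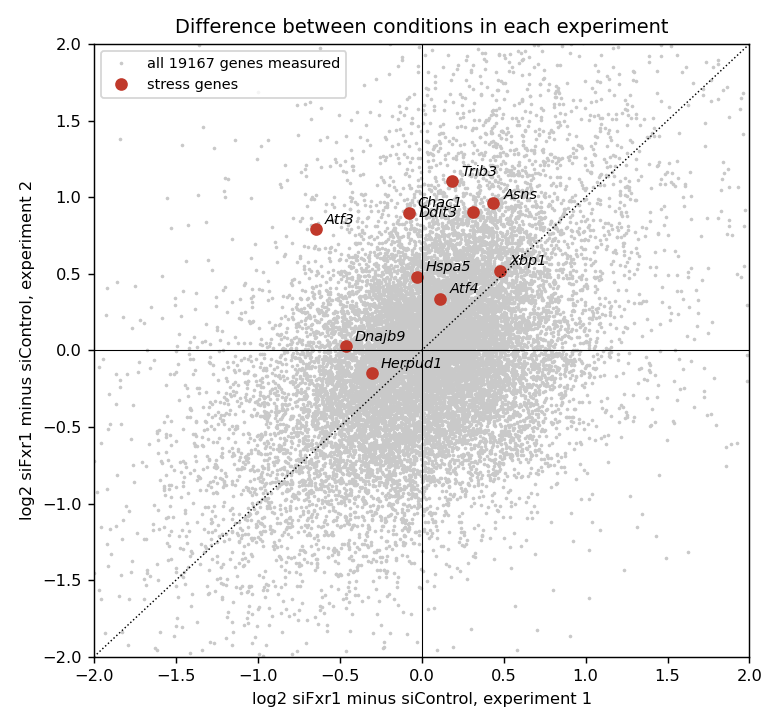
Log2 difference of siFxr1 from siControl in experiment 1 (horizontal axis) and in experiment 2 (vertical axis) for all 19167 genes (grey, 533 lie outside the axes) and the 10 stress genes (red); the dotted line marks equal differences. Shown at the brighter probe where a gene has 2, all 10 lie above the dotted line. Of them, 5 lie to the upper right of 0 and Herpud1 alone to the lower left.

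The wider pathways were described through 7 lists with 131 genes, of which 128 were measured. None of the 128 was called in siFxr1 against siControl, 57 were higher in both experiments and 32 lower in both, and their median log2 fold change was 0.12 against 0.03 over all genes. The fit of the 4 ratios, which share arrays, called 1 of them, Edem2. Of all 19167 genes it called 247 as higher and 261 as lower in siFxr1. The fit with the experiment as a term and without dim probes called 0 of the 128, and of all genes 169 as higher and 85 as lower.

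Chaperones and foldases of the endoplasmic reticulum had the most members on one side, with 17 of 22 higher in siFxr1 in both experiments, 3 lower in both and a median of 0.29. Pdia6, a protein disulfide isomerase, had a log2 signal of 16.92 and 16.80 in siFxr1 and of 16.52 and 16.01 in siControl, with no overlap, and a difference of 0.60 (SE 0.25). In this list 7 of 22 genes were higher with no overlap, against 16.5% of all genes. Ero1lb, an oxidase that recharges these isomerases, had 8.85 and 8.88 against 8.50 and 5.98, and its difference of 1.63 (SE 1.00) came mainly from 1 low siControl array. Ero1l, also on the list, was lower in siFxr1 in both experiments, with a difference of -0.36 (SE 0.19). Cdnf, a secreted neurotrophic factor of the endoplasmic reticulum, was well above background on both siControl arrays and on neither siFxr1 array. It entered the list's measured genes through siControl alone, so that its lower level in siFxr1 is no finding.

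Of the genes of degradation from the endoplasmic reticulum, 8 of 15 were higher and 4 lower in both experiments, and the median was 0.14. With no overlap 4 of 15 were higher and 4 lower, against 3165 and 2729 of all 19167 genes. The 3 Edem genes, whose products direct misfolded glycoproteins to degradation, went different ways. Edem2 was lower in siFxr1, at 7.66 and 7.82 against 8.57 and 8.67 in siControl, by almost the same amount in each experiment (-0.91 and -0.86), and its difference of -0.88 (SE 0.16) had an adjusted p of 0.950 in the limma fit and a B of 1.43 in the fit of the ratios. Edem3 differed by 0.70 (SE 0.37) and Edem1 by 0.56 (SE 0.24), and both were higher in siFxr1 in each experiment.

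The list of amino acid synthesis and transport under ATF4 had 6 of 20 genes higher and 4 lower in both experiments, with a median of -0.03. The serine synthesis enzymes Psph and Psat1 had differences of 0.99 (SE 0.76) and 0.97 (SE 0.55), and mitochondrial Pck2 one of -0.88 (SE 0.30). With the experiment as a term the SEs were 0.23, 0.32 and 0.32, and the limma adjusted p were 0.535, 0.567 and 0.584. With 1 array left out, and so with the experiments unpaired, the differences of Psph and Psat1 ranged from 0.21 to 1.77 and from 0.33 to 1.62. This list also had the lowest median of the 7 between the experiments, -0.38, with 10 of 20 genes lower in experiment 2 in both conditions. Of the cytosolic aminoacyl-tRNA synthetases, which charge tRNAs and many of which ATF4 induces, 7 of 20 were higher and 5 lower in both experiments, with a median of 0.09. Farsb differed by 0.53 (SE 0.17), with no overlap, Iars by 0.49 (SE 0.37) and Yars by 0.41 (SE 1.00). Among these synthetases 4 of 20 were higher with no overlap, against 16.5% of all genes.

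Among further effectors under ATF4 and CHOP, 9 of 21 were higher and 6 lower in both experiments, with a median of 0.18. With no overlap 8 of 21 were higher and 3 lower, against 3165 and 2729 of all 19167 genes. Tnfrsf10b, the death receptor through which CHOP is linked to apoptosis, had a log2 signal of 12.18 on both siFxr1 arrays and of 11.44 and 10.94 in siControl, a difference of 0.99 (SE 0.24, limma adjusted p = 0.967). Trib2, a relative of Trib3, was higher by 0.99 (SE 0.66). Fgf21, a hormone that stressed muscle can secrete, had 9.21 and 3.15 in siFxr1 against 10.16 and 5.08 in siControl. It was thus highest in both arrays of experiment 1, and was not well above background in siFxr1 of experiment 2. Like Cdnf, it entered the measured genes through siControl alone, so that its lower level in siFxr1 is no finding.

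Among the sensors, kinases and phosphatases of the response, 6 of 16 were higher and 5 lower in both experiments, with a median of 0.10. Eif2ak2, the kinase PKR that double-stranded RNA activates, had a difference of -0.53 (SE 0.47), Creb3l2 one of 0.48 (SE 0.29) and the ATF6 protease gene Mbtps2 one of 0.42 (SE 0.33). The cytosolic heat shock proteins, which answer to unfolded proteins outside the endoplasmic reticulum, had 4 of 14 higher and 5 lower in both, with a median of -0.02. Hspb1 differed by -0.67 (SE 0.24), with both siFxr1 arrays under both siControl arrays, Hsph1 by 0.48 (SE 0.29) and Hspa1a by -0.40 (SE 0.73). Of these heat shock genes 2 of 14 were lower with no overlap, against 2729 of all 19167 genes.

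**Figure D4:**
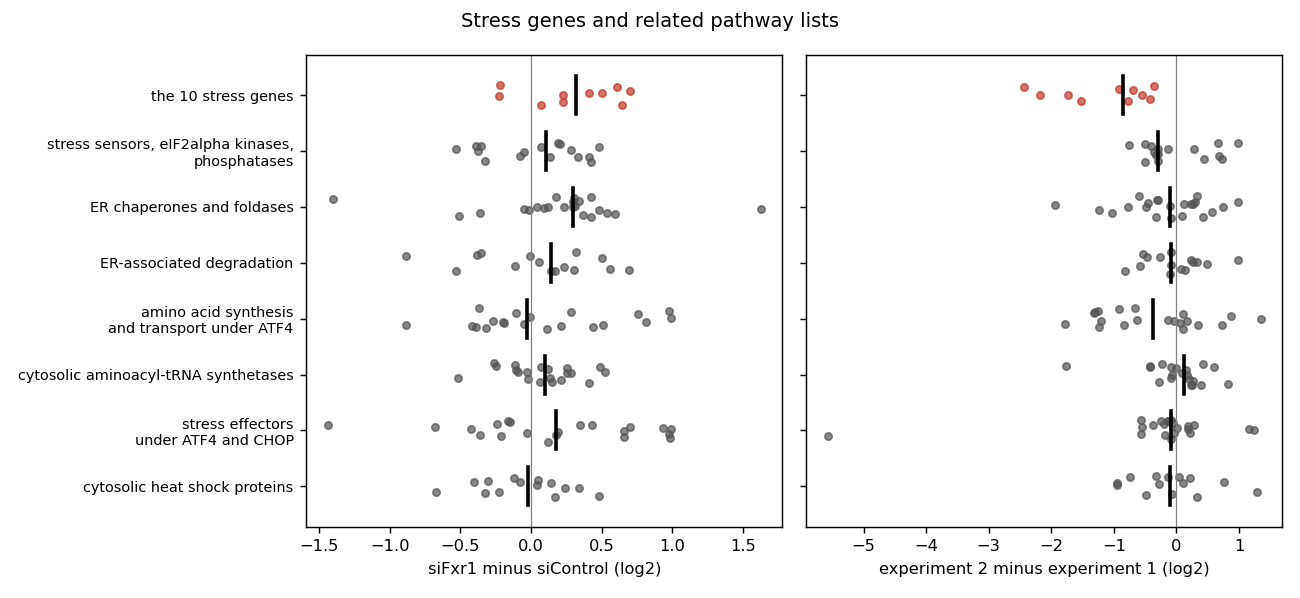
Log2 difference of siFxr1 from siControl (left) and of experiment 2 from experiment 1 (right) for each measured gene of the 10 stress genes (red) and of the 7 pathway lists (grey), with a black line at the median of a list. On the left the medians of the lists lie between -0.03 and 0.29, and on the right the 10 stress genes have a median of -0.85, under that of every list; the point farthest to the left is Fgf21, which was not well above background on 1 array of experiment 2.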

How the data were processed

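The 4 arrays, 2 per condition, hold RNA of transfected C2C12 cells, and the samples were grouped by their labels, which also number the 2 independent experiments. The authors deposited the intensity of each spot from Agilent Feature Extraction 10.7.3.1, background-corrected within the array and not normalized between arrays, and a table of normalized intensities, used as an alternative. Per the file headers, probe positions are on mm9. Which exon or UTR a probe lies in is not stated here.

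The intensities were taken to log2 in R 4.3.3 and quantile-normalized over 59305 spots that were not controls. Outlier spots were then set to missing and spots of a probe averaged. limma 3.58.1 was fitted to all 55681 probes with condition as the only term, and probes were called at B above 0. limma, quantile normalization and the B threshold follow the study's methods, which state no design and speak of means of the ratios between arrays. Experiments were compared with condition and experiment as terms. A gene was represented by its brightest probe, taken from probes that both arrays of a condition (either or both) showed well above background. The fits were tested on simulated data. The members, the lists and the rule for named genes (all members, Fxr1, and from each list up to 3 genes with the largest fold change of the same sign in both experiments) were chosen with earlier results of these data known. Of the listed pathway genes, Derl3, Vimp and Hspa1b were not measured. Mymk stands on the array as Tmem8c. Promoter windows are those of RefSeq.

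The labels' experiment numbers mark a shared slide and pair the samples. Over 25523 probes, samples of one experiment deviated together from their condition means (correlation 0.714), and no 2 arrays were duplicates (correlations of 0.961 to 0.981). Alternatives were 75th percentile scaling, normexp with an offset of 50, the authors' table, a filter on dim probes, the replicate block, the 4 ratios as observations, the mean of a gene's probes and each array left out. Joining the block with the filter or with normexp was added after the data were examined.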

Additional observations from a re-analysis of the deposited data

Results flagged for a closer look

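The difference of siFxr1 from siControl went opposite ways in the 2 experiments for 4 of the 10 genes. Each had the higher difference in experiment 2, by 1.44 for Atf3 on the log2 scale, 0.98 for Chac1, 0.51 for Hspa5, and 0.49 and 0.65 for the brighter and dimmer probes of Dnajb9. With 1 array of each condition in an experiment, these differences between experiments were not tested.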

How the results depend on the processing

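No member was called in siFxr1 against siControl under any alternative, and their adjusted p with the replicate block lay between 0.577 and 0.968. Of the pathway genes, 1 was called in the fit of the 4 ratios. The number of members past the threshold between the experiments was 0 over all probes, of which 0% passed. It was 5 with 75th percentile scaling (10.5% of all probes passed), 6 with normexp (8.03%) and 6 with the authors' table (9.79%). With dim probes left out it was 4 (17% of the probes kept), and with the mean of a gene's probes 3 (12.9% of genes). The cause of these changes was not tested. The mean of both probes turned the difference of Dnajb9 to 0.017. The fits with 1 array left out had condition as the only term, so that the difference between experiments enters their estimates. They therefore do not measure how stable the difference within an experiment is. Genes that were higher in siFxr1 in each experiment, such as Atf4 and Trib3, could turn in them. Leaving out 1 array at a time turned the sign of the log2 fold change for 7 members. Without siControl of experiment 2 it was -0.039 for Atf4, -1.15 for Atf3, -0.68 for Trib3, -1.05 for Chac1 and -0.18 for Hspa5, and without siFxr1 of experiment 1 it was -0.43 for Atf3, -0.22 for Trib3 and -0.56 for Chac1. For Herpud1 and Dnajb9 it was 0.084 and 0.43 without siFxr1 of experiment 2, and 0.16 and 0.67 without siControl of experiment 1. The ranges were -0.039 to 0.49 for Atf4, -1.15 to 1.29 for Atf3, -0.68 to 1.96 for Trib3, -1.05 to 1.87 for Chac1, -0.18 to 0.63 for Hspa5, -0.61 to 0.16 for Herpud1 and -1.11 to 0.67 for Dnajb9, and, for pathway genes that also turned, -1.10 to 0.030 for Eif2ak2, -0.61 to 1.43 for Yars, -4.47 to 1.59 for Fgf21 and -1.05 to 0.25 for Hspa1a. Ddit3 (0.28 to 0.94), Xbp1 (0.10 to 0.90) and Asns (0.11 to 1.29) kept their sign. With 2 arrays per condition, the fit without a block called no probe, Fxr1 at a log2 fold change of -3.31 included, so a missed call does not bound a difference.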
